A study of Mus musculus with 5 samples.

Results

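The genes of the mitochondrial respiratory chain and of ATP synthase were followed in mouse spinal cord with and without the long non-coding RNA Lhx1os. Members were taken by symbol, without use of any measured value. They were the protein-coding genes of the GRCm38 annotation named Nduf with a subunit letter (a, b, c, s or v) and number, Sdha to Sdhd, Uqcr, Cox4 to Cox8, Atp5, and the mt-Nd, mt-Co, mt-Cytb and mt-Atp genes. This gave 97 of the 55471 genes in the count table, 84 encoded in the nucleus and 13 in the mitochondrial genome. By complex, the nuclear members were 7 core and 28 supernumerary subunits of complex I, 4 of complex II, 8 of complex III, 19 of complex IV and 18 of complex V. Ndufa4, which carries a complex I name, was placed with complex IV, where its protein resides. The other nuclear members were placed by symbol alone, which does not by itself show that each protein is a subunit. The 18 of complex V include a second entry of Atp5o with 0 counts.

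The mice were male, C57BL/6J, 3 months old and at rest, and whole spinal cord RNA was read in 3 libraries of wild type (WT, Lhx1os +/+) and 2 of the knockout (KO, Lhx1os -/-). The KO allele came from injecting fertilized eggs with Cas9 mRNA, 1 guide RNA against exon 2 of Lhx1os and a donor oligonucleotide that places a synthetic polyadenylation signal and MAZ repeats there. The sources describe 1 such allele, so its effect cannot be told apart from other changes carried by the line. They do not say whether libraries of a genotype came from separate litters or preparations, so the p-values rest on the spread among these samples alone, part of which may be technical. In bulk tissue, fewer cells of a type and less RNA per cell cannot be told apart.

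The respiratory chain passes electrons from NADH through complex I, or from succinate through complex II, to ubiquinone, then through complex III and cytochrome c to oxygen at complex IV. Complexes I, III and IV pump protons across the inner membrane, and complex V uses the returning protons to make ATP. Every complex except II is built from subunits of both genomes, and neurons draw most of their ATP from this pathway. Mitochondrial messenger RNAs (mRNAs) are cut from long transcripts of the whole heavy strand, with only mt-Nd6 taken from the light strand, and most carry short poly(A) tails, which lets a poly(A) library capture them.

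The libraries held 15973063 to 19437533 counts. Lhx1os had 56, 66 and 51 counts in WT and 13 and 11 in KO. Its log2 fold change was −2.13 (SE 0.28; edgeR quasi-likelihood adjusted p = 0.0589). Respiratory chain members took 5.43% to 6.31% of all counts, of which the 13 mitochondrial genes took 4.32% to 5.23% and the 84 nuclear genes 1.05% to 1.11%. Markers of neurons (Snap25, 2824 CPM), astrocytes (Gfap, 2076 CPM) and oligodendrocytes (Mbp, 16613 CPM) were all high, as the labelled tissue requires, where CPM is the usual depth-scaled count, with library sizes adjusted by TMM factors.

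Of the 12 heavy-strand mitochondrial mRNAs, 6 averaged 3804 to 18288 CPM over the libraries and the other 6 only 0.873 to 8.21 CPM. Of these 6 low genes, 5 have an identical annotated copy in the nuclear genome over nearly their whole length, and the other, mt-Atp8, has one for 43 of its 204 bases and lies between copied genes. The copy is a stretch of mitochondrial sequence on the minus strand of chromosome 1, chr1:24611535-24616197 in GRCm38, which GENCODE M21 annotates as 7 unprocessed pseudogenes. It corresponds to mitochondrial positions 6390 to 11042. The following pairs are shown because they mark where a read can and cannot be told apart. In mt-Nd3, bases 4 to 63 counted from the start of the gene are the same letters as in the pseudogene Gm28438:

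mt-Nd3: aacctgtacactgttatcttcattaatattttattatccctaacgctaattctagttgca
Gm28438: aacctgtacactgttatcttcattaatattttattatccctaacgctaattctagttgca

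The copy of mt-Nd4, the pseudogene Gm28439, stops after base 876 of the gene. In the stretch from base 847, capitals mark the part that only the mitochondrial gene has:

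mt-Nd4: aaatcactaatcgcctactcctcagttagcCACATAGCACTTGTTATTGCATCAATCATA
Gm28439: aaatcactaatcgcctactcctcagttagc

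The copy of mt-Co1, Gm29216, aligns from base 1063 of the gene to its end at base 1545. The only difference within the aligned bases lies at the edge of the alignment, so it may mark where the copied sequence starts rather than a substitution. It is A1066T (position from the start of the gene, mitochondrial base first), in capitals:

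mt-Co1: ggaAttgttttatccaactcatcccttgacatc
Gm29216: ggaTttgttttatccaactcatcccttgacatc

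Annotated copies covered 99.6% of mt-Co2, 99.6% of mt-Atp6, 99.9% of mt-Co3, 98.3% of mt-Nd3 and 99.0% of mt-Nd4l. The aligned bases had 0 mismatches, but the alignment was local, so differences near the end of a copy could fall outside it. Coverage was partial for mt-Nd4, at 63.6% (876 bases), and for mt-Co1, at 31.3% (483 bases). The copy was annotated over 21.1% of mt-Atp8, the 43 bases it shares with mt-Atp6. Between the copies of mt-Co2 and mt-Atp6, 233 bases of chromosome 1 have no annotated gene, and the mitochondrial genome has 233 bases between the same points, with the rest of mt-Atp8 among them. No copy on chromosome 1 was annotated for mt-Nd1, mt-Nd2, mt-Nd5, mt-Nd6 or mt-Cytb.

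The counts changed sharply from gene to gene along the heavy strand. mt-Co1, the catalytic subunit of complex IV, had 336765, 329775 and 305375 counts in WT and 301128 and 276563 in KO. mt-Co2, the subunit that takes electrons from cytochrome c and whose gene lies next to mt-Co1 on the same strand, had 151, 148 and 116 counts in WT and 137 and 143 in KO. In each library mt-Co1 stood 1934-fold to 2633-fold above mt-Co2, so that every library showed the same gap.

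The other low genes, which follow mt-Co2 in the genome, had similarly few counts. mt-Atp6, a proton channel subunit of complex V, had 146, 143 and 120 counts in WT and 142 and 122 in KO. mt-Co3, a structural core subunit of complex IV, had 137, 101 and 108 in WT and 128 and 133 in KO. The small complex I subunit mt-Nd3 had 14, 19 and 10 in WT and 19 and 22 in KO. Its neighbour mt-Nd4l had 19, 15 and 16 against 13 and 11, and mt-Atp8, the small subunit of complex V, 20, 16 and 17 against 11 and 20. Together these 6 genes took 0.00227% to 0.00284% of all counts in a library.

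The chromosome 1 pseudogenes themselves had few counts too. Gm28661, the copy of mt-Co2, had 641, 597 and 568 counts in WT and 624 and 574 in KO. Gm10925, the copy of mt-Atp6, had 674, 559 and 583 in WT and 620 and 610 in KO, and Gm28437, the copy of mt-Co3, had 783, 636 and 566 against 662 and 668. Each of these 3 copies thus had more counts than the mitochondrial gene it copies, and both had far fewer than mt-Co1. How the counting treated reads that match 2 places is not given in the sources used here, and its part in the low counts was not tested. With that unknown, the counts of these 6 genes are not read here as levels of their mRNAs.

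**Figure D1:**
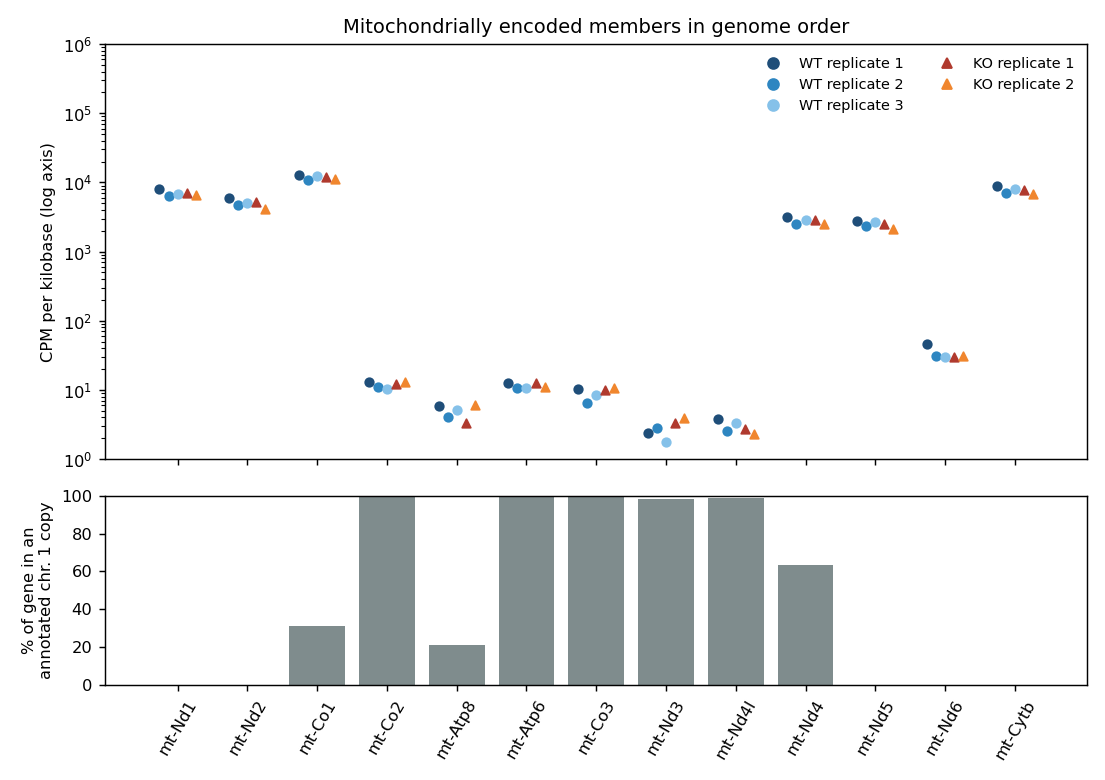
Level of the 13 mitochondrially encoded members in genome order, as CPM per kilobase of gene on a log axis, with 1 point per library (circles WT, triangles KO), above the percentage of each gene covered by an annotated chromosome 1 copy. The genes between mt-Co1 and mt-Nd4 sit near 10 CPM per kilobase or lower, and the other heavy-strand genes sit at 2483 or more on average.

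Compared per length, the 6 abundant mitochondrial genes stood above every nuclear member of the chain. Means over the 5 libraries were 11837 CPM per kilobase for mt-Co1, 7673 for mt-Cytb, the cytochrome b of complex III, 6944 for mt-Nd1, 4989 for mt-Nd2, 2760 for mt-Nd4 and 2483 for mt-Nd5. The 4 Nd genes encode membrane-arm subunits of complex I. With only the bases outside the copy counted as length, mt-Co1 stood at 17221 CPM per kilobase and mt-Nd4 at 7577. This takes out only part of the sequence shared with other genes, since 51.1% of the runs of 50 letters in mt-Co1 occur in 3 other annotated genes and 62.2% of those in mt-Nd4 in 1 other. Light-strand mt-Nd6, also a membrane subunit of complex I, stood at 33.4 CPM per kilobase with no copy on chromosome 1. Its mRNA is known from human cells to have little or no poly(A) tail, and the libraries select poly(A) RNA. The part of this in its low level was not tested.

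Some mitochondrial genes share bases with each other. The last 43 bases of mt-Atp8 are the first 43 of mt-Atp6, read in another frame and carried on 1 mRNA. The stretch is shown because a read within it belongs to both genes, with the start codon of mt-Atp6 and the stop codon of mt-Atp8 in capitals:

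mt-Atp8 and mt-Atp6 overlap: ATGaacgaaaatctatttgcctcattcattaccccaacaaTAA

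mt-Nd4l and mt-Nd4 share 7 bases on the same strand, and mt-Nd5 and mt-Nd6 share 14 bases on opposite strands. The strand setting of the counting is not given in the sources used here.

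The question put to the members was whether loss of Lhx1os altered them. No member passed an adjusted p of 0.05 in either direction, among the 93 that had enough counts to be tested (edgeR quasi-likelihood test, Benjamini-Hochberg adjustment over 16052 genes). Over all genes 3 passed (0.0187%), with 0 higher in KO (0.0%) and 3 lower (0.0187%). At an unadjusted p under 0.05, 5 members were higher in KO (5.38% of members, 3.49% of all genes) and 0 were lower (4.07% of all genes). DESeq2 also called 0 members, with 3 higher and 1 lower at an unadjusted p under 0.05, and its smallest adjusted p for a member was 0.744. Over all 16052 genes DESeq2 called 40, and 678 had an unadjusted p under 0.05 in either direction. It gave no adjusted p to the low-count heavy-strand mitochondrial genes or to Cox4i2, Cox6b2, Cox7a1 and Cox8b, so it could not call these. Both KO libraries lay above all 3 WT libraries for 18 members (12.9% of all genes do so) and below them for 2 members (12% of all genes).

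Differences of the nuclear members between genotypes were small. Their log2 fold changes had a median of 0.04, against 0.0044 over all genes tested, and 61 of 80 were above 0, where 51.3% of all genes were. Among the 76 nuclear members at a mean of 10 CPM or more, log2 fold changes ran from −0.06 to 0.22, and their median size without sign was 0.046, with a median SE of 0.06. Over all 10446 genes at that level the median size was 0.074, with a median SE of 0.08. The count above 0 moved with single libraries, falling to 49 of 80 without WT replicate 2 or without KO replicate 2, and rising to 68 of 79 without WT replicate 1.

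**Figure D2:**
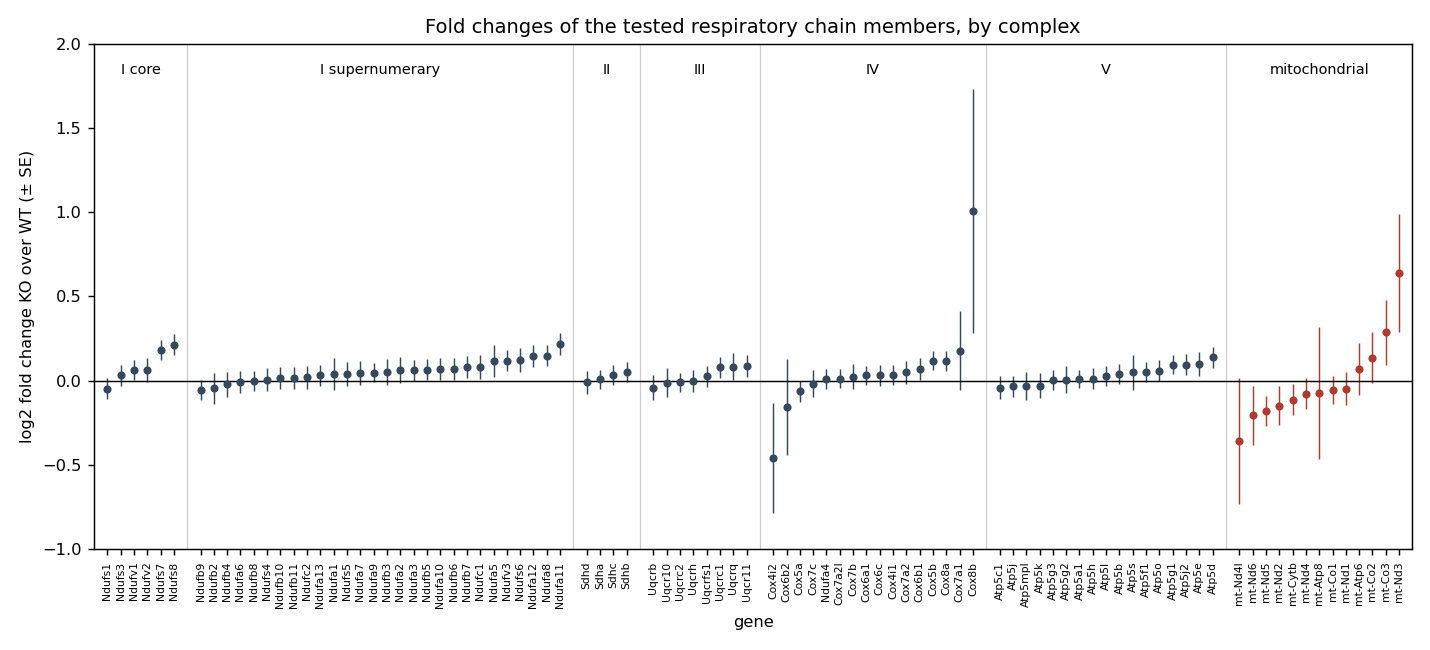
Log2 fold change of KO over WT (± SE, edgeR) for the tested members other than 1 not shown, ordered by value within each complex and with the mitochondrially encoded members in red. Nuclear members other than the low-count isoforms Cox4i2, Cox6b2, Cox7a1 and Cox8b lie between −0.06 and 0.22, and the wide errors belong to genes with few counts.

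Complex I, the NADH dehydrogenase, held the members with the smallest p-values. Of its 7 nuclear core subunits, which were kept from bacteria, 6 were above 0, with 0.06 as the median log2 fold change. Of its 28 supernumerary subunits 23 were above 0, with a median of 0.05. Ndufs8, an iron-sulfur subunit that hands electrons towards ubiquinone, stood at 70.0, 66.3 and 65.2 CPM in WT and 77.1 and 78.6 CPM in KO. Both KO values lay above all WT values, and the log2 fold change of 0.21 (SE 0.06) did not pass (edgeR adjusted p = 0.506). Ndufs7, which carries the last iron-sulfur cluster before ubiquinone, stood at 74.5, 76.5 and 73.4 CPM in WT and 86.8 and 83.0 CPM in KO (0.18, SE 0.06; edgeR adjusted p = 0.565). Neither difference rested on 1 library, with ranges of 0.19 to 0.24 and 0.15 to 0.21 when each library was left out.

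Ndufa11, a supernumerary subunit of the membrane arm, stood at 66.9, 68.0 and 63.2 CPM in WT and 78.4 and 75.3 CPM in KO. Its groups did not overlap, and its log2 fold change was 0.22 (SE 0.06; edgeR adjusted p = 0.506). Ndufa8, an intermembrane-space subunit, stood at 74.3, 72.2 and 73.9 CPM in WT and 77.8 and 85.01 CPM in KO (0.15, SE 0.06), and its value was 0.081 without KO replicate 2, the higher library. Ndufa12, a supernumerary subunit of the peripheral arm, stood at 82.4, 76.4 and 82.4 CPM in WT and 86.0 and 91.8 CPM in KO (0.15, SE 0.07). Neither passed, with edgeR adjusted p = 0.657 and 0.660.

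The remaining complex I subunits of high level showed smaller differences. Ndufv1, which binds NADH and the flavin, stood at 100.7 CPM per kilobase and differed by 0.06 (SE 0.06), with the groups overlapping. Per length of the principal transcript, the highest supernumerary subunits were Ndufb8 at 223 CPM per kilobase, Ndufb10 at 160.0 and Ndufb9 at 133.7, all of the membrane arm. Their log2 fold changes were 0.00, 0.02 and −0.06. With all exons joined as length, Ndufb8 stood at 48.2 CPM per kilobase, Ndufb10 at 96.2 and Ndufb9 at 91.3. Ndufb9 was 1 of the 2 members with both KO libraries lowest, at 98.5, 94.2 and 94.3 CPM in WT and 90.8 and 92.9 CPM in KO.

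Summed over the 7 nuclear core genes, complex I stood at 918, 884 and 896 CPM in WT and 935 and 943 CPM in KO. The sums did not overlap, with group means of 899 ± 17.1 (SD, n = 3) and 939 ± 5.78 (SD, n = 2). The 28 supernumerary genes summed to 1982 to 2099 CPM in WT and to 2080 and 2131 in KO, with overlap. Neither sum holds the mitochondrially encoded subunits of complex I. The 4 abundant ones, mt-Nd1, mt-Nd2, mt-Nd4 and mt-Nd5, all had log2 fold changes below 0. They summed to 18575 to 23164 CPM in WT and to 20602 and 17898 CPM in KO, also with overlap.

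Complex II, the succinate dehydrogenase shared with the citric acid cycle, has 4 subunits, all nuclear, and none differed by more than its error. Sdha, the flavin-bearing catalytic subunit, stood at 565.7, 527.2 and 548.8 CPM in WT and 549.1 and 551.5 CPM in KO, with both KO libraries inside the WT range and a log2 fold change of 0.01 (SE 0.06). Per length Sdha led at 189.1 CPM per kilobase, before the iron-sulfur subunit Sdhb at 100.2 and the membrane anchors Sdhd at 71.8 and Sdhc at 26.6. Log2 fold changes were 0.05 for Sdhb, −0.01 for Sdhd and 0.03 for Sdhc, with errors from 0.06 to 0.07.

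Complex III, the cytochrome bc1 complex, was split evenly, with 4 of its 8 nuclear members above 0 and 4 below and a median of 0.01. Uqcrh, the hinge protein that helps cytochrome c bind, was highest at 305.7 CPM per kilobase, with a log2 fold change of 0.00 (SE 0.07). Uqcrc1, a core protein facing the matrix, stood at 246.1, 236.3 and 219.5 CPM in WT and 247.9 and 246.5 CPM in KO. Its groups were parted by less than 1 CPM, and the difference of 0.08 (SE 0.06) did not pass (edgeR adjusted p = 0.785). The small subunits Uqcr10, Uqcrq and Uqcr11 stood at 163, 161 and 147 CPM per kilobase. Uqcr11 and Uqcrq had log2 fold changes of 0.09 (SE 0.07) and 0.08 (SE 0.08), and Uqcr10 one of −0.01 (SE 0.09). Without KO replicate 1 the value for Uqcr10 was 0.10, and with KO replicate 2 left out instead it was −0.14.

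Complex V, the ATP synthase, gave the highest nuclear transcript of the chain. Atp5b, the catalytic beta subunit, stood at 653 CPM per kilobase, with 1267, 1196 and 1253 CPM in WT and 1258 and 1286 CPM in KO (0.04, SE 0.06). Atp5a1, the alpha subunit that alternates with beta in the head, stood at 364 CPM per kilobase, with 917.9, 886.0 and 886.5 CPM in WT and 897.3 and 909.6 CPM in KO (0.01, SE 0.06). The groups overlapped for both. Over the 17 tested members, 13 were above 0 with a median of 0.03.

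The rotor ring of ATP synthase is made of 1 mature protein that 3 genes encode with different leader peptides. Atp5g3 was highest of them at 290.3 CPM per kilobase, with a log2 fold change of 0.00 (SE 0.06). Atp5g1 stood at 125.7, 121.5 and 124.5 CPM in WT and 131.6 and 132.9 CPM in KO, without overlap (0.09, SE 0.06; edgeR adjusted p = 0.730). Atp5d, the delta subunit of the central stalk, had the smallest p of the complex, at 122.6, 126.3 and 116.2 CPM in WT and 135.9 and 132.0 CPM in KO (0.14, SE 0.06; edgeR adjusted p = 0.657). Atp5j2, a subunit of the membrane part, differed by 0.10 (SE 0.06) with overlap.

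**Figure D3:**
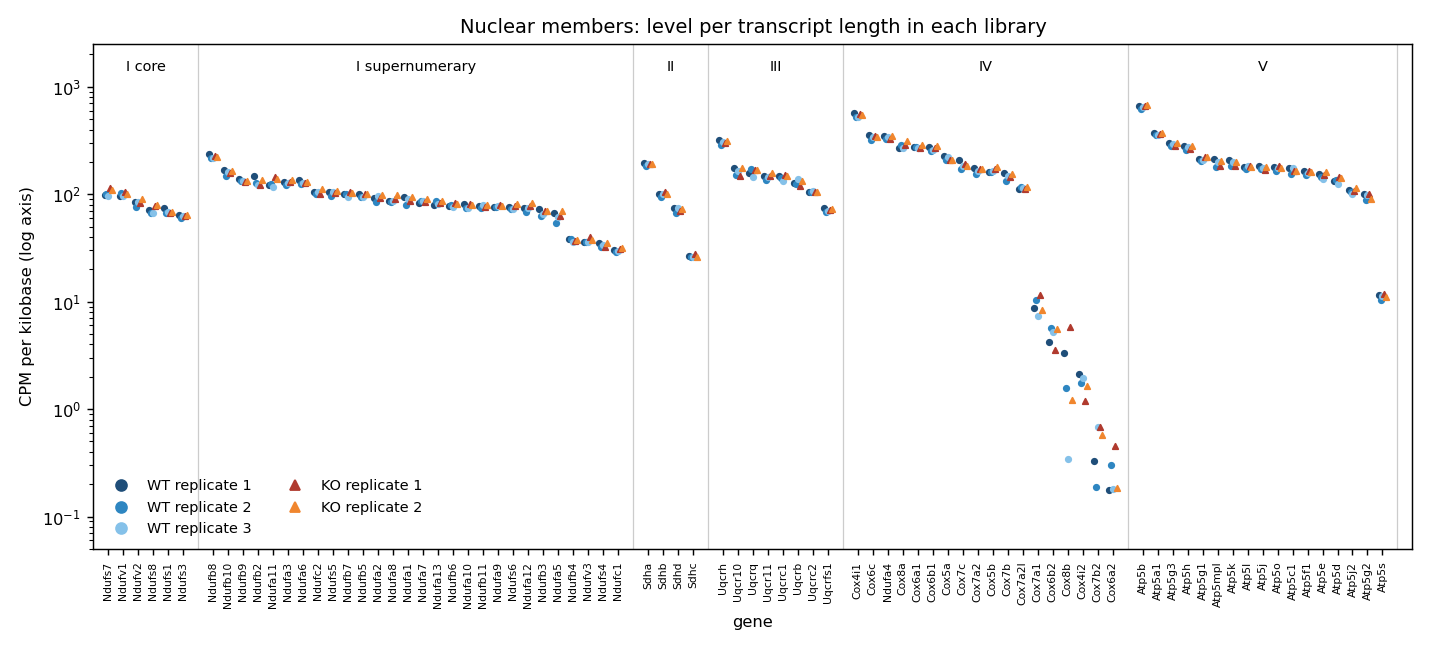
Level of the nuclear members with a count other than 1 not shown, as CPM per kilobase of its principal transcript on a log axis, by complex and in falling order within each, with 1 point per library. Atp5b at 653 and Cox4i1 at 543 lead, and the complex IV isoforms Cox7a1, Cox6b2, Cox8b, Cox4i2, Cox7b2 and Cox6a2 lie at 9.28 or lower on average.

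Complex IV, the cytochrome c oxidase, is the complex with most tissue isoforms, and the widespread ones dominated here. Cox4i1, which takes part in allosteric control of the enzyme by ATP, stood at 543 CPM per kilobase, with 421.6, 389.9 and 390.4 CPM in WT and 412.8 and 406.8 CPM in KO (0.03, SE 0.06). Its counterpart Cox4i2, known from lung and from oxygen-sensing cells, stood at 1.73 CPM per kilobase, with 26, 25 and 23 counts in WT and 14 and 19 in KO. Both KO libraries were below WT, and the log2 fold change of −0.46 (SE 0.33) did not pass (edgeR adjusted p = 0.764).

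The other isoform pairs had the same order. Cox6a1 stood at 276 CPM per kilobase, and Cox6a2, its heart and skeletal muscle form, had 2 to 5 counts per library and was not tested. Cox6b1 stood at 268 CPM per kilobase and the testis form Cox6b2 at 4.83, with 27 to 52 counts. Cox7a2 stood at 168 CPM per kilobase and the related Cox7a2l, which helps join complexes into supercomplexes, at 114. The muscle form Cox7a1 stood at 9.28, with 58, 79 and 47 counts in WT and 74 and 53 in KO. Cox8a stood at 286 CPM per kilobase, Cox8b at 2.44, and the testis form Cox8c had 0 counts in all 5 libraries. Log2 fold changes were 0.03 for Cox6a1, 0.07 for Cox6b1, 0.05 for Cox7a2 and 0.01 for Cox7a2l, with errors of 0.06 to 0.07.

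Cox8b, the form of heart, skeletal muscle and brown fat, varied far more between libraries than any other tested member. It had 20, 11 and 2 counts in WT and 34 and 7 in KO. The genotypes overlapped, and the log2 fold change of 1.01 (SE 0.72; edgeR adjusted p = 0.769) was −0.51 without KO replicate 1. Ucp1, the uncoupling protein that defines brown fat, had 42, 26 and 1 counts in WT and 110 and 3 in KO, the same order of libraries. Of the 5 markers of heart and brown fat, 3 were tested and 2 of them were above 0, and the 5 summed to 6.71 to 10.2 CPM in WT and to 15.9 and 6.94 CPM in KO. Cidea, which brown fat also expresses, had 70 to 113 counts, and the heart genes Nppa and Myh6 had 0 to 4.

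Of the 12 skeletal muscle markers 9 were tested and 8 were above 0, and the 12 summed to 80.6 to 100.9 CPM in WT and to 101.4 and 91.0 CPM in KO, mostly from Pvalb, which neurons also express. Myh4, a fast muscle myosin, had 16, 9 and 1 counts in WT and 74 and 9 in KO, and Ckm, the muscle creatine kinase, had 11, 17 and 0 against 38 and 12. KO replicate 1 was highest and WT replicate 3 lowest in each of Cox8b, Ucp1, Myh4 and Ckm. Their part in the level of Cox8b was not tested.

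Of the subunits without such isoforms, Cox6c, a small membrane subunit, and Ndufa4, a late-joining one, were the highest at 339 and 338 CPM per kilobase of principal transcript. Their log2 fold changes were 0.03 and 0.01. With all exons joined as length, Cox6c stood at 47.8 CPM per kilobase and Ndufa4 at 149. Cox5b, a zinc-binding subunit on the matrix side, had the smallest p of the complex, at 138.3, 140.3 and 141.9 CPM in WT and 149.1 and 154.8 CPM in KO. Its groups did not overlap and the difference of 0.12 (SE 0.06) did not pass (edgeR adjusted p = 0.684). Cox8a stood at 149.6, 157.9 and 148.4 CPM in WT and 159.2 and 170.5 CPM in KO, also without overlap (0.12, SE 0.06; edgeR adjusted p = 0.709). Besides Cox6a2 and Cox8c, Cox7b2 (2 to 6 counts per library) and a second entry of Atp5o (ENSMUSG00000116933, 0 counts in all libraries) were below the count filter and not tested.

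Of the 13 mitochondrially encoded members 4 were above 0 and 9 below, and none passed in edgeR. All 6 that stood above 1000 CPM had log2 fold changes below 0, with a median of −0.10. mt-Nd5 stood at 5109, 4314 and 4832 CPM in WT and 4509 and 3878 CPM in KO (−0.18, SE 0.09; edgeR adjusted p = 0.692), the smallest p among them. WT replicate 1 was highest and WT replicate 2 lay below KO replicate 1, so the groups overlapped. mt-Nd2 (−0.15, SE 0.11), mt-Cytb (−0.11, SE 0.09), mt-Nd4 (−0.08, SE 0.09), mt-Co1 (−0.05, SE 0.08) and mt-Nd1 (−0.05, SE 0.10) overlapped as well. Leaving out WT replicate 1 brought the median of the 6 to −0.02. Leaving out KO replicate 2 brought it to −0.01, and leaving out KO replicate 1 to −0.18.

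mt-Nd6 had 397, 310 and 251 counts in WT and 256 and 256 in KO, with WT replicate 1 above the other libraries relative to depth. Its log2 fold change was −0.21 (SE 0.17), and 0.02 without that library. The 6 low-count heavy-strand genes had log2 fold changes from −0.36 for mt-Nd4l (SE 0.38) to 0.64 for mt-Nd3 (SE 0.35; edgeR adjusted p = 0.715). The others were mt-Co3 at 0.29 (SE 0.19), mt-Co2 at 0.14 (SE 0.15), mt-Atp6 at 0.07 (SE 0.15) and mt-Atp8 at −0.07 (SE 0.39). At 10 to 151 counts per library, these genes could show only large differences.

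Counts of the 13 mitochondrial members were 4.83, 4.19 and 4.54 times those of the 84 nuclear members in WT and 4.42 and 3.89 times in KO. The means were 4.52 ± 0.320 (SD, n = 3) and 4.15 ± 0.369 (SD, n = 2), a log2 ratio of −0.12, with overlap and no p given for a sum over members. An exact test of 3 against 2 libraries cannot go below p = 0.2. On the log2 scale the ratio was −0.03 without KO replicate 2 and −0.21 with KO replicate 1 left out instead. Each KO library alone thus gave a different distance from WT. KO replicate 2 was also highest in Hoxd10, Hoxc10 and Hoxa10, markers of spinal cord position given further on. WT replicate 3 came next in these markers, and its ratio of 4.54 lay above the 4.19 of WT replicate 2. The part of cord position in the ratio was not tested.

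The ribosomal RNAs of the mitochondrion, mt-Rnr1 and mt-Rnr2, come from the start of the same heavy-strand transcript. Their counts were 0.110, 0.108 and 0.112 of those of the 13 mRNAs in WT and 0.0763 and 0.111 in KO. KO replicate 1 stood apart, and KO replicate 2 lay within the WT range. mt-Rnr2 had a log2 fold change of −0.35 (SE 0.11; edgeR adjusted p = 0.539) and mt-Rnr1 one of −0.30 (SE 0.13; edgeR adjusted p = 0.647). The low share in KO replicate 1 did not extend to its mitochondrial mRNAs, which summed to 47977 CPM there against 43545 to 53263 CPM in WT and 43097 CPM in KO replicate 2.

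**Figure D4:**
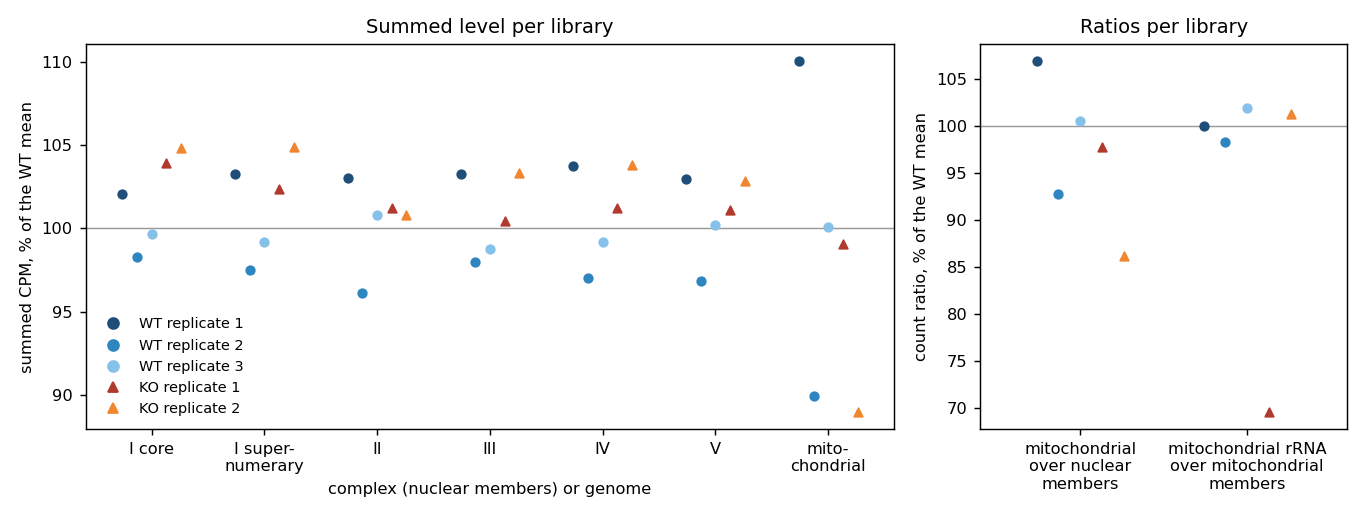
Left, summed CPM of the nuclear members of each complex and of the 13 mitochondrially encoded members in each library, as a percentage of the WT mean. Right, count ratios on the same scale: the mitochondrial over the nuclear members and the mitochondrial ribosomal RNAs over the 13 mitochondrial mRNAs, where KO replicate 1 stands lowest. Circles are WT and triangles KO. The mitochondrial sums spread more than the nuclear sums. The nuclear core subunits of complex I are the set on the left in which both KO libraries lie above all WT libraries.

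The fold changes of nuclear members went with base composition. Across the 76 nuclear members at 10 CPM or more, the rank correlation of log2 fold change with the GC content of the principal transcript was 0.36, and across 10443 genes at that level it was 0.45 (genes share the libraries and are not independent, so no p is given). In single libraries, the rank correlation of a member's deviation from its mean with GC was −0.34, 0.32 and −0.47 in WT and 0.33 and 0.21 in KO. WT replicate 2 thus leaned to GC-rich transcripts as the KO libraries did, and WT replicates 1 and 3 to GC-poor ones. Over all genes the values were −0.36, 0.25 and −0.45 in WT and 0.31 and 0.34 in KO.

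The members of smallest p were among the GC-rich ones. Transcripts of Ndufs7 and Atp5d had a GC content of 60.7% and 61.1%, Ndufa11 of 58.2% and Ndufs8 of 57.8%, where the median of the 76 was 51.7% and the range 39.0% to 61.1%. The 38 members of higher GC had a median difference of 0.056 on the log2 scale and the 38 of lower GC 0.026, while over all genes the corresponding medians were 0.047 and −0.040. Among the 38 of higher GC 30 were above 0, and among the 38 of lower GC 29 were. Over all genes, 3569 of the 5222 of higher GC and 1752 of the 5221 of lower GC were above 0. The part of base composition in the differences between genotypes was not tested.

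**Figure D5:**
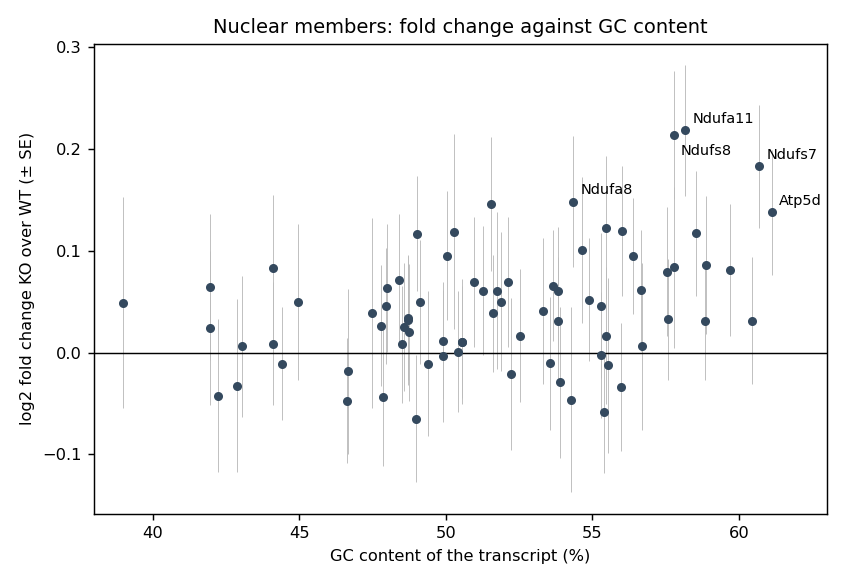
Log2 fold change of KO over WT (± SE, edgeR) against GC content of the principal transcript for the 76 nuclear members at 10 CPM or more. The 5 members with an unadjusted p under 0.05, labelled, lie between 54.4% and 61.1% GC.

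Many nuclear subunits share sequence with other annotated genes, processed pseudogenes among them, which bears on the precision of their counts. Of the nuclear members, 47 shared at least 1 run of 50 letters of their principal transcript with another annotated gene, on either strand, and 7 shared more than 50% of such runs. The other gene was not always a pseudogene. For Cox4i1 it was Emc8 and for Atp5a1 Haus1, each a protein-coding gene on the same chromosome as the member. Among the named genes Atp5g1 shared 66.0% of its runs of 50 letters, and Ndufs8, Ndufs7, Ndufa8 and Atp5d shared 0.0%. Ndufa11 shared 12.5% with 2 genes, among them the processed pseudogene Ndufa11b, Ndufa12 26.2% and Cox5b 25.9%. Atp5g2, named for this value and not by its level, shared 100.0% with the processed pseudogene Gm10175 and another gene, and Atp5l, likewise, 84.8% with 14 other genes. Counts of such genes may be divided among copies.

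Promoters of respiratory chain genes are known for binding sites of nuclear respiratory factor 1 (NRF1), whose palindromic site is GCGCATGCGC, the half-site GCGCA followed by its reverse complement. RefSeq promoter sequences (GRCm38.p6) matched 66 of the nuclear members by gene identifier or symbol. In the 250 bases before the start, GCGCATGCGC occurred in 4 of these 66 promoters (6.06%) and in 237 of 27025 promoters in the table (0.877%), reading both strands. The 4 windows that hold it are shown with the site in capitals, so that it can be seen in its surroundings. They are from Atp5g2 (chr15:102671065-102671104, minus strand), Atp5k (chr5:108434425-108434464, minus strand), Cox6a1 (chr5:115349096-115349135, minus strand) and Ndufa11 (chr17:56717687-56717726, plus strand):

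Atp5g2: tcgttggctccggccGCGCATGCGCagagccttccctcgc
Atp5k: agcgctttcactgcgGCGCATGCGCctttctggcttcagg
Cox6a1: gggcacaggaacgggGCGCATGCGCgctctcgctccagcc
Ndufa11: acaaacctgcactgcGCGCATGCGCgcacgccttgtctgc

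Between the site and the start lie 32, 40, 152 and 50 bases, in that order. Their genes had log2 fold changes of 0.01, −0.03, 0.03 and 0.22, and none of the 4 passed. The looser GCGCANGCGC, where N is any base and which includes the site above, occurred in 13 members (19.7%) and in 4.23% of all promoters. CCGGAAGTG, a site of the factor GABP, occurred in 1 member (1.52%, against 1.602%), CCAAT in 29 (43.9%, against 37.5%) and TATAAA in 6 (9.09%, against 14.3%). A match is a string of letters and not a measured binding site.

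Genes that regulate, assemble or feed the chain were read from the same edgeR fit, and 0 of them passed, nor did DESeq2 call any. Among 21 regulators of mitochondrial biogenesis 8 were above 0 and 13 below, 3 of these at an unadjusted p under 0.05 (4.07% of all genes). Gabpa, the DNA-binding subunit of GABP, had 457, 534 and 450 counts in WT and 374 and 332 in KO, with a log2 fold change of −0.33 (SE 0.09; edgeR adjusted p = 0.450). Creb1, a cAMP-responsive activator, differed by −0.29 (SE 0.10; edgeR adjusted p = 0.560). Both KO libraries were below all WT libraries for both genes, as for 12% of all genes. Nrf1 itself, added after its values were seen, differed by −0.03 (SE 0.10).

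Of 26 genes of mitochondrial transcription and transcript handling 11 were above 0 and 15 below, 1 of these at an unadjusted p under 0.05 (4.07% of all genes). The smallest p-values were those of Polg2, the accessory subunit of the mitochondrial DNA polymerase (−0.54, SE 0.21), and Fastk (0.14, SE 0.07). Assembly factors were split evenly for complex I (8 and 8 of 16, with Ndufaf4 at −0.17 and Ndufaf7 at −0.13), complex II (2 and 2 of 4, with Sdhaf3 at −0.09 and Sdhaf4 at −0.06) and complex III (3 and 3 of 6, with Ttc19 at −0.10 and Lyrm7 at 0.11). For complex IV, 11 of 24 were above 0, with Cox14 at 0.19 and Cmc2 at −0.24. Cox14 was the 1 gene here with an unadjusted p under 0.05, where 3.49% of all genes were higher at that p. For complex V 3 of 6 were above 0, with Tmem242 at −0.14 and Dmac2 at 0.10. Of chain parts that the symbol rule leaves out, 0 had an unadjusted p under 0.05 in edgeR, among them Ndufab1, the acyl carrier subunit of complex I (−0.05, SE 0.08), Ndufa4l2 (0.24, SE 0.30), cytochrome c1, Cyc1 (0.07, SE 0.06), and the assembly factor Cox11 (−0.19, SE 0.11).

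Of 23 genes of the citric acid cycle and its pyruvate entry 13 were above 0 and 10 below. Of these 10, 2 had an unadjusted p under 0.05 (4.07% of all genes were lower at that p). Pdk4, a kinase that closes pyruvate entry, differed by −0.39 (SE 0.12; edgeR adjusted p = 0.525) and Suclg2, a succinyl-CoA ligase subunit, by −0.21 (SE 0.09; edgeR adjusted p = 0.644). Of 17 glycolytic genes 13 were above 0 with a median of 0.07, led by Tpi1 (0.12, SE 0.06) and Hk1 (0.12, SE 0.06), and both KO libraries lay above WT for 9 of them (12.9% of all genes do so). Of 18 genes of the outer membrane, carriers and cristae 11 were above 0, with Tomm40 at 0.17 (SE 0.07) and Phb at 0.09 (SE 0.06). Of 10 antioxidant genes 7 were, with Gpx4 at 0.17 (SE 0.05; edgeR adjusted p = 0.560) and Txn2 at 0.07 (SE 0.06).

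Cell type markers moved between libraries beside these values. Neuron markers were above 0 for 8 of 11 genes, with sums of 8786 to 10530 CPM in WT and 10692 and 9843 CPM in KO, and motor neuron markers for 5 of 6, with sums of 190.8 to 303.5 CPM in WT and 330.5 and 230.0 CPM in KO. Microglial markers were below 0 for 6 of 6, oligodendrocyte precursor markers for 4 of 5 and meningeal fibroblast markers for 7 of 7. Astrocyte markers were above 0 for 2 of 7, oligodendrocyte markers for 3 of 7, endothelial markers for 3 of 5 and Schwann cell markers for 0 of 5. In edgeR 0 of the 83 markers of all lists passed, with 4 higher and 8 lower at an unadjusted p under 0.05 (3.49% and 4.07% of all genes). DESeq2 called 1, the precursor gene Gpr17 (−0.62, SE 0.09), and 40 over all 16052 genes. Their part in the small differences of the chain was not tested.

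Markers of position along the spinal cord differed between libraries of the same genotype. Hoxd10, a gene of the lumbar cord, had 1, 0 and 7 counts in WT and 0 and 117 in KO. Hoxc10 stood at 6.01, 5.57 and 17.7 CPM in WT and 4.78 and 33.3 CPM in KO, and Hoxa10 at 3.03, 1.38 and 9.60 CPM in WT and 1.78 and 14.3 CPM in KO. KO replicate 2 was highest in all 3 genes, followed by WT replicate 3. Whether each library held the whole length of the cord was not tested. Of the 8 genes of this list 7 were tested and 5 were above 0, and the 8 summed to 136.3 to 173.8 CPM in WT and to 187.1 and 205.9 CPM in KO. Malat1, a long non-coding RNA kept in the nucleus and read here as a sign of RNA quality, stood at 430.9, 452.7 and 378.2 CPM in WT and 461.8 and 600.8 CPM in KO. Both KO libraries lay above WT, with KO replicate 2 highest, and the log2 fold change was 0.34 (SE 0.11; edgeR adjusted p = 0.539). The part of cord position and of RNA quality in the values of the chain was not tested.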

How the data were processed

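Poly(A) RNA of 5 spinal cord libraries (3 WT, 2 KO) had been made into stranded libraries, per the labels' protocols. The deposited values are raw read counts per gene, which the authors made with cutadapt, Trimmomatic, STAR 2.5.2b and HTSeq on GRCm38, per the submitters' processing notes. The handling of multiply matching reads and of strand is not given in the sources used here. GENCODE M21 matched 55230 of 55471 identifiers.

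Genes were filtered with filterByExpr (minimum count 10, minimum total count 15), leaving 16052, and tested with edgeR 4.0.16 (R 4.3.3) by the quasi-likelihood test with TMM factors (0.982 to 1.01), no covariates and Benjamini-Hochberg adjustment. The common biological coefficient of variation was 7.48%. Depth was 15973063 to 19437533 counts. On simulated data with 200 changed genes among 16052, the test recovered 80.6% at 1.5-fold, 89.6% at 2-fold and 98.5% at 4-fold. With 185 calls there, these rates overstate recovery where few genes pass. Every gene was simulated at the common coefficient of variation, without shifts in base composition between libraries, and no fold below 1.5 was tried. The rates therefore do not cover differences as small as those of the nuclear members at 10 CPM or more. Level per length used the principal transcript, a choice made after seeing the data. With all exons joined, 11 of the 18 highest genes by group were the same. Ndufs7, Ndufb9, Ndufb8, Uqcrq, Ndufa4, Cox6c and Atp5g3 were then no longer among the 3 highest of their group.

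Named were all mitochondrial members, in each nuclear group the 3 highest per length and the 3 of smallest p, the complex IV isoforms, untested members, and from each related list passing genes or else the 2 of smallest p. A gene that this rule selects is not reported here. The members and lists were chosen with earlier results of these data known. Alternatives covered size factors, filters, robust dispersion, DESeq2 1.42.0, limma-voom 3.58.1, the replicate number as a block and leaving out each library.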

Additional observations from a re-analysis of the deposited data

How the results depend on the processing

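No member passed an adjusted p of 0.05 in the main analysis or in any of the 13 other settings, and the smallest adjusted p of a member was 0.288 (Ndufs8 without WT replicate 1, edgeR). Over all genes, the main count of 0 higher in KO became 14 with no filter on low counts, 4 with DESeq2 and 1 with the replicate block. It ran from 0 to 5 when single libraries were left out. The main count of 3 lower became 6 with DESeq2 size factors in edgeR, 6 with sizes computed without mitochondrially encoded genes, 82 with no filter, 12 with robust dispersion, 36 with DESeq2, 1 with limma-voom and 24 with the replicate block. It ran from 0 (without KO replicate 1) to 53 (without WT replicate 1) when single libraries were left out. The cause was not tested.

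Deviations of same-numbered libraries from their group means had correlations of 0.0570 and 0.0159, with 2 such pairs. The deviations of 2 KO libraries from their mean are equal and opposite. The 2 correlations are therefore not separate and cannot show whether the libraries were paired. The main analysis did not take the numbers to pair them. With the replicate number as a block, which leaves 1 residual degree of freedom, 65 of 80 nuclear members were above 0 and the smallest adjusted p of a member was 0.562 (mt-Nd2, edgeR). The median log2 fold change of complex III ran from −0.011 without WT replicate 2 to 0.056 without KO replicate 1, and that of the 13 mitochondrial members from −0.16 without WT replicate 2 to 0.02 without WT replicate 1. Of the 51 named and tested members, 23 changed sign when a library was left out and 3 under another tool, filter or scaling. Nuclear members were above 0 in 60 or 61 cases under other size factors, filters and tools apart from the block. With 2 KO libraries, leaving one out rests that group on a single library assumed to vary like the others. The 6 low-count heavy-strand mitochondrial genes and the low complex IV isoforms had 0 to 151 counts per library, which limits what their fold changes can show. The reason for the low counts of the 6 mitochondrial genes was not tested.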
